A study of Mus musculus with 6 samples.

Results

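The heat shock chaperones of the cytosol and the mitochondria were examined in pancreatic islets of Pax8 +/- and Wt mice. They were chosen by name as a set of 10 genes, with the brightest probe set where a gene had several, and 9 of the 10 were measured, out of 19505 named genes on the array. The 9 were Hspa1a, Hspa1b, Hsph1, Dnajb1, Bag3, Hsp90aa1, Hspb1, Hspd1 and Hspe1, each with 1 probe set. Hspa8, the constitutive HSP70 of the cytosol, was not matched to a probe set by symbol, gene ID or accession and is not analysed here. The islets came from 3 Pax8 +/- samples and 3 Wt samples, which are labelled Control. Pax8 encodes a transcription factor that the thyroid gland needs to develop, and Pax8 +/- mice, the mild hypothyroid model of the study, lack 1 copy in the whole animal, not in islets alone. The mice were males on a C57BL/6 background, the islet arrays are presented with mice killed at 9 months of age, and mice of that age were fasted before killing. The labels of the arrays themselves give neither age nor treatment for either group. Islets were freed with collagenase, washed and picked by hand, and the number of mice behind an array is not stated. The p-values therefore cover the spread between these samples, which may be technical.

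Heat shock chaperones bind unfolded proteins and keep them from aggregating. HSP70 proteins work in cycles of ATP hydrolysis that J-domain proteins such as Dnajb1 start and nucleotide exchange factors such as Hsph1 and Bag3 end, and HSP90 takes over many of their clients. In the mitochondrial matrix, Hspd1 forms a folding chamber that Hspe1 closes as a lid. Heat, oxidants and unfolded protein activate the transcription factor Hsf1, which binds heat shock elements, runs of GAA and TTC triplets in alternating orientation, in the promoters of these genes. Beta cells fold large amounts of proinsulin, mostly with the chaperones of the endoplasmic reticulum, which are a separate set.

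The promoters are shown for their heat shock elements. The genes were chosen by name as heat shock chaperones, whose promoters Hsf1 binds at such elements. A high count of matches therefore follows largely from the choice and is no independent finding. RefSeq promoter windows of the build GRCm38.p6, from 250 bases before a transcription start to 50 bases after it, were available for 8 of the 10 genes, and Hspa8 and Hsp90aa1 had none in that table. The motif of 3 units was TTC, NN, GAA, NN and TTC in a row, or GAA, NN, TTC, NN and GAA, with N for any base. The motif of 2 units was TTC, NN and GAA, or GAA, NN and TTC. These spellings cover both strands, and each match of 3 units contains 2 overlapping matches of 2 units. Capitals mark the matches in the windows below, which lie on the minus strand at chr17:34959189-34959488 (Hspa1b) and chr5:149636266-149636565 (Hsph1) and on the plus strand at chr5:135887669-135887968 (Hspb1) and chr1:55087898-55088197 (Hspe1).
Hspa1b: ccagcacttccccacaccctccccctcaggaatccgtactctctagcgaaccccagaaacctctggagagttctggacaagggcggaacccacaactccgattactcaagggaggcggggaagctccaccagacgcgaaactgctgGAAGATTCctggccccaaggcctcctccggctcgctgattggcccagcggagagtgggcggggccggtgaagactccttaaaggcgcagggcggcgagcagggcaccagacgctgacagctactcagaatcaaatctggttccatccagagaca
Hsph1: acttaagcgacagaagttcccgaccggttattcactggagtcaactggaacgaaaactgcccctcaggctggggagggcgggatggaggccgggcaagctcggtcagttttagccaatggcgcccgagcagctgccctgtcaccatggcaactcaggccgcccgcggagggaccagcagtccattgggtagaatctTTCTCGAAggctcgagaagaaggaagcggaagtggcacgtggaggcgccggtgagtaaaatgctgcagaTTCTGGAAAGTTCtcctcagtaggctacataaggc
Hspb1: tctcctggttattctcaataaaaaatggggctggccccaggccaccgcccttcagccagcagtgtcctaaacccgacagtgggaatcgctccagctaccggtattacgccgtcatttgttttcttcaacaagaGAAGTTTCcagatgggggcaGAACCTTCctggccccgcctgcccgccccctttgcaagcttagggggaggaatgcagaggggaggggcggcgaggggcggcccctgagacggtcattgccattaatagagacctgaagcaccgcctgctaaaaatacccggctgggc
Hspe1: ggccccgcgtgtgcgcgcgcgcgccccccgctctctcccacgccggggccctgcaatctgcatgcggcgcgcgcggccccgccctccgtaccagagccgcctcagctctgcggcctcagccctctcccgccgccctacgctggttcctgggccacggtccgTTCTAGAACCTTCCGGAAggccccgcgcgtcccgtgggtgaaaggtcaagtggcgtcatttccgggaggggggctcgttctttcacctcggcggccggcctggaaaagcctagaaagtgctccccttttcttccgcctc

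A motif of 3 units was found for Hspe1, Hspd1 and Hsph1, that is 3 of 8 genes, against 0.662% of 27025 genes with any window. A motif of 2 units was found for 7 of the 8, all except Dnajb1, against 17.0% of the 27025 genes. Hspe1 and Hspd1 are neighbours that are read in opposite directions from a common promoter, and the Hspe1 window shared 285 of its 300 bases with 1 of the 2 Hspd1 windows. The run of triplets lay 89 to 72 bases before the Hspe1 start and 144 to 127 bases before that Hspd1 start, so that these 2 genes hold 1 and the same element. In Hsph1 the motif of 3 units lay just past the start, and the motif of 2 units at 54 to 47 bases before it in the window shown. The single match of Hspa1b, 104 to 97 bases before the start, had the same place in Hspa1a (minus strand, chr17:34972107-34972406). The windows of the 2 genes were identical at 296 of 300 bases. Counted from 1 at the 5′ end of the window, with the base of Hspa1a first, they differed as C44T, T47C, T249G and C276T, none of them inside the match. Hspa1a and Hspa1b are near-identical copies, and no source used here says whether a probe set reads 1 of them alone. Their separation is uncertain, and their 2 values cannot be read as independent. The counts, medians and means of the chaperone genes, here and below, still include both as separate genes. None of these was repeated with the pair taken as 1 gene. These matches describe the letters of the windows and not the binding of a factor.

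Levels are log2 values from Clariom S arrays, which the authors summarised with RMA, the robust multi-array average. Over the 6 arrays, medians were 5.25 to 5.33, and the background, taken as the 95th percentile of an array's negative control probe sets, was 7.60 to 7.97. Of the 22206 gene probe sets, 25.3% to 29.5% lay above it. The arrays did not all group by genotype: Pax8 +/- replicate 1 and Wt replicate 1 were most like each other (r = 0.984 over probe sets, which are not independent replicates). Wt replicate 2 was most like Pax8 +/- replicate 1 (r = 0.981), and Wt replicate 3 was most like Pax8 +/- replicate 2 (r = 0.983). Only Pax8 +/- replicates 2 and 3 were most like an array of their own genotype, each other (r = 0.984). The results below are therefore given with each array's own value and without single arrays. Groups were compared with limma over all 22206 probe sets, at the thresholds of the study, a fold change of at least 2.5 with an unadjusted p no higher than 0.05. At these, 78 probe sets were lower and 144 higher in Pax8 +/- islets with the fold taken from group means of log2 values, and 119 lower and 232 higher with it taken from their Tukey biweights, a robust mean, with the same p. After Benjamini-Hochberg adjustment over all 22206, limma left 0 probe sets with an adjusted p under 0.05. At an unadjusted p of at most 0.05 it called 1312, or 5.91%, and an ordinary linear model without moderation called 976 at that p and 0 after adjustment.

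All 9 chaperone genes had a lower mean in Pax8 +/- islets, where 50.8% of all gene probe sets did and 48.0% of those above background on all 6 arrays, and 1 of the 9, Hspa1b, fell at the thresholds of the study, against 0.351% of all gene probe sets. With the Tukey biweight fold, 2 of the 9 passed, Hspa1b and Hsph1, against 0.536% of all gene probe sets. The median log2 difference of the 9 genes was -0.93, and that of all gene probe sets -0.01. At an unadjusted p of at most 0.05, 3 of the 9 were lower (Hspa1b, Hsph1 and Hspe1) and 0 higher, against 2.77% lower and 3.14% higher over all probe sets. None reached an adjusted p under 0.05 in limma, and the adjusted p-values of the 9 were 0.745 to 0.957. Groups did not overlap for 1 gene, Hspe1, against 5.14% of all probe sets that were lower without overlap (5.13% of those above background on all 6 arrays) and 4.52% that were higher. An exact 2-sided permutation test of 3 arrays against 3 cannot go below p = 0.1, and gave 0.1 to 0.7 for the 9 genes. The genes, and the lists below, were chosen with earlier results of these data known. Their counts beside the shares of all probe sets are therefore no independent evidence. In bulk islets, fewer cells of a type and less RNA per cell cannot be told apart.

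**Figure D1:**
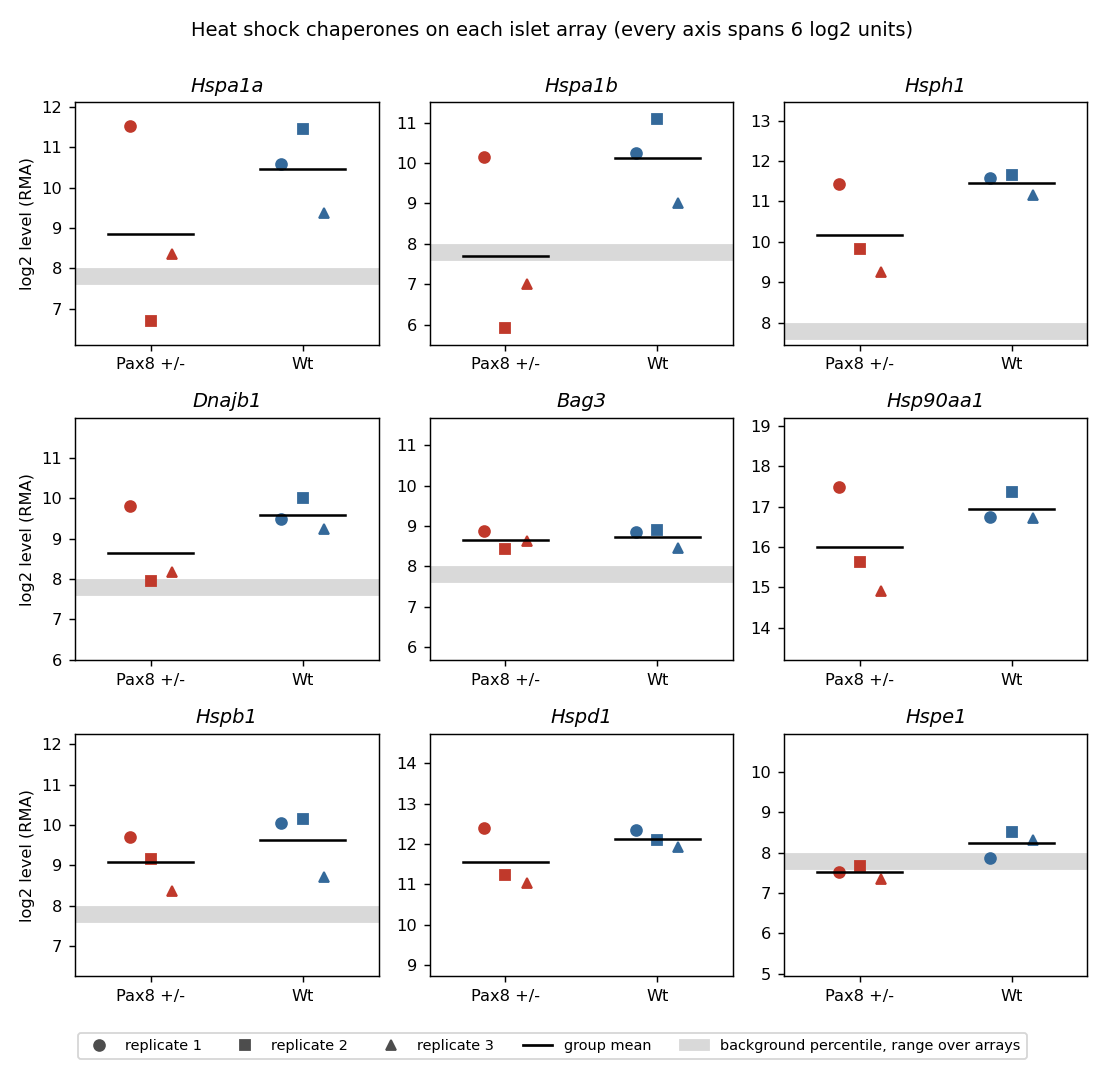
Log2 level of each of the 9 chaperone genes (vertical axis) on the 3 Pax8 +/- arrays (red) and the 3 Wt arrays (blue), with group means as black lines and the range of the background percentile over the arrays in grey. Every panel spans 6 log2 units, so that the wide spread of Hspa1a and Hspa1b in Pax8 +/- islets can be compared with the narrow one of Bag3; for most genes Pax8 +/- replicate 1 lies at the height of the Wt arrays.

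Hspa1a and Hspa1b encode the stress-inducible HSP70 of the cytosol, which is scarce in resting cells of many tissues. Hspa1b (Entrez Gene 15511) was at 10.14, 5.93 and 7.01 on Pax8 +/- replicates 1, 2 and 3, against 10.26, 11.08 and 9.01 on Wt replicates 1, 2 and 3. Replicates 2 and 3 of Pax8 +/- lay below every Wt array and below the background, while replicate 1 lay inside the Wt range, so that the groups overlapped. The means were 7.69 ± 2.19 in Pax8 +/- and 10.12 ± 1.04 in Wt islets (SD, n = 3 each), a log2 difference of -2.42 (standard error 1.00) or 5.37-fold lower, with an adjusted p = 0.745 from limma. The size is not exact, because 2 of the 3 Pax8 +/- values are at background. Hspa1b no longer passed without Pax8 +/- replicate 2 (-1.54), Pax8 +/- replicate 3 (-2.08), Wt replicate 1 (-2.35) or Wt replicate 2 (-1.94), and passed without Pax8 +/- replicate 1 (-3.65) or Wt replicate 3 (-2.98). It did not pass without empirical Bayes moderation either.

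Hspa1a (Entrez Gene 193740) was at 11.53, 6.69 and 8.36 on the Pax8 +/- arrays, against 10.59, 11.44 and 9.36 on the Wt arrays. Pax8 +/- replicate 1 had the highest level of all 6 arrays and replicate 2 the lowest, below background, a span of the whole range within 1 genotype. The means were 8.86 ± 2.46 in Pax8 +/- and 10.46 ± 1.05 in Wt islets (SD, n = 3 each). The log2 difference of -1.60 (standard error 1.09) exceeded the fold change of the study in size and had an unadjusted p = 0.180 from limma, so that it did not pass. Without Pax8 +/- replicate 1 it did, at -2.94.

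Hsph1, the HSP110 that frees ADP from HSP70, was at 11.42, 9.82 and 9.25 on the Pax8 +/- arrays, against 11.58, 11.65 and 11.15 on the Wt arrays. The Wt arrays lay within a narrow band that also held Pax8 +/- replicate 1, and Pax8 +/- replicates 2 and 3 were lower. Means of 10.16 ± 1.13 in Pax8 +/- and 11.46 ± 0.27 in Wt islets (SD, n = 3 each) gave a log2 difference of -1.30 (standard error 0.52), 2.46-fold lower and just short of the 2.5-fold threshold, at an unadjusted p = 0.0348 and an adjusted p = 0.745 from limma. Hsph1 was above background on all 6 arrays.

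Dnajb1, the J-domain partner that loads clients onto HSP70, was at 9.81, 7.95 and 8.19 on the Pax8 +/- arrays and at 9.49, 10.02 and 9.25 on the Wt arrays. It had the same order of arrays as Hspa1b at the lower end, with Pax8 +/- replicate 2 lowest and replicate 3 next. The log2 difference of -0.93 (standard error 0.49) had an unadjusted p = 0.0914 from limma. Bag3, which couples HSP70 to autophagy of damaged proteins, was at 8.87, 8.43 and 8.64 on the Pax8 +/- arrays and at 8.85, 8.91 and 8.45 on the Wt arrays. Its groups covered nearly the same range, with a log2 difference of -0.09 (standard error 0.26), and the sign turned when Pax8 +/- replicate 2 (0.0205) or Wt replicate 2 (0.0009) was left out.

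Hsp90aa1, the inducible HSP90 of the cytosol, was at 17.47, 15.63 and 14.90 on the Pax8 +/- arrays, against 16.75, 17.36 and 16.71 on the Wt arrays. Pax8 +/- replicate 1 was again the highest of the 6 and replicates 2 and 3 the lowest. The log2 difference was -0.94 (standard error 0.59), at an unadjusted p = 0.152 from limma. Hspb1, a small heat shock protein that holds unfolding proteins without ATP and binds actin, was at 9.70, 9.16 and 8.36 on the Pax8 +/- arrays and at 10.04, 10.14 and 8.71 on the Wt arrays. Wt replicate 3 was low for this gene too, and the groups overlapped widely, with a log2 difference of -0.56 (standard error 0.47).

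Hspd1 and Hspe1, the chaperonin pair of the mitochondria, did not pass the thresholds. Hspd1 was at 12.40, 11.23 and 11.05 on the Pax8 +/- arrays, against 12.34, 12.10 and 11.93 on the Wt arrays. Its log2 difference was -0.56 (standard error 0.38), with replicates 2 and 3 of Pax8 +/- below all Wt arrays and replicate 1 above them. Hspe1 was at 7.53, 7.67 and 7.36 on the Pax8 +/- arrays, against 7.86, 8.52 and 8.32 on the Wt arrays. It was the 1 gene of the 9 for which Pax8 +/- replicate 1 also lay below every Wt array, although its probe set was dim, above background on no Pax8 +/- array and on 2 of the 3 Wt arrays. The fitted log2 difference was -0.71 (standard error 0.27), at an unadjusted p = 0.0282 and an adjusted p = 0.745 from limma. With Pax8 +/- values set no lower than the background, Hspe1 was 1.35-fold lower in Pax8 +/- islets, means of log2 values being compared. This is no lower bound, because Wt replicate 1 lay at background too and was left as measured.

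**Figure D2:**
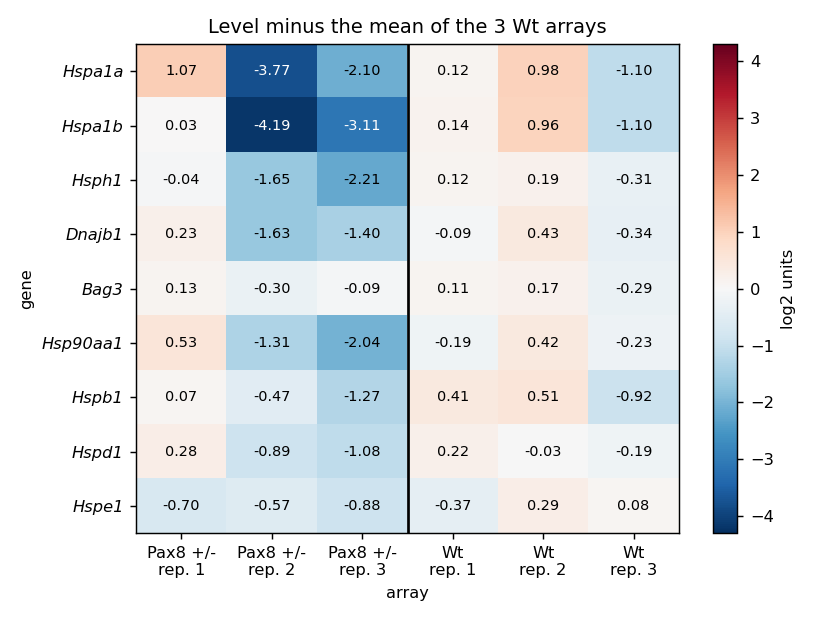
Level of each chaperone gene (rows) on each array (columns) minus the mean of the 3 Wt arrays, in log2 units, with the value printed in each cell. Pax8 +/- replicates 2 and 3 are below the Wt mean for every gene, down to -4.19 for Hspa1b, and replicate 1 lies between -0.70 (Hspe1) and 1.07 (Hspa1a).

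Array by array, Pax8 +/- replicate 1 lay below all Wt arrays for 1 of the 9 genes, within their range for 5 and above it for 3 (Hspa1a, Hsp90aa1 and Hspd1). Replicate 2 lay below all Wt arrays for 8 of the 9, all except Hspb1, and replicate 3 for 8 of the 9, all except Bag3. Over all gene probe sets, the shares below all Wt arrays were 22.7% for replicate 1, 30.5% for replicate 2 and 28.3% for replicate 3, and over those above background on all 6 arrays 15.4%, 30.7% and 38.2% in the same order. The lowest array was Pax8 +/- replicate 3 for 5 genes and replicate 2 for 4, and the highest was Wt replicate 2 for 6 and Pax8 +/- replicate 1 for 3. Within Wt, replicate 3 was the lowest array for 8 of the 9 genes. The SD was larger in Pax8 +/- than in Wt islets for 6 of the 9, where it was for 54.1% of all gene probe sets. The mean of the 9 genes was 10.99, 9.17 and 9.24 on the Pax8 +/- arrays and 10.86, 11.25 and 10.32 on the Wt arrays, or 9.80 ± 1.03 in Pax8 +/- and 10.81 ± 0.47 in Wt islets (SD, n = 3 each).

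**Figure D3:**
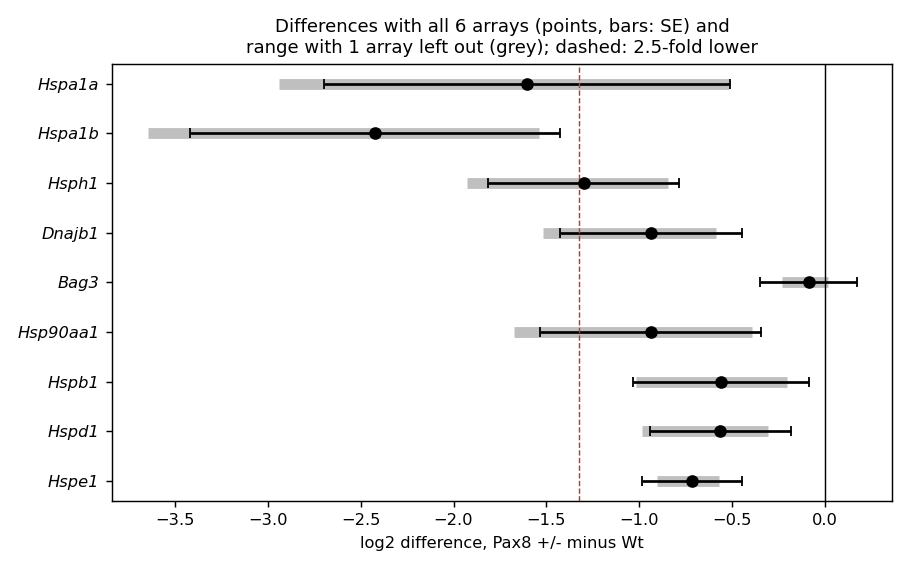
Log2 difference (Pax8 +/- minus Wt, horizontal axis) of each chaperone gene with its standard error from limma (points and bars, all 6 arrays), and the range of the difference when each array is left out in turn (grey). The dashed line marks 2.5-fold lower, Hspa1a ranges from -2.94 to -0.52 and Bag3 reaches 0.0205, and the values of Hspa1b rest in part on signal below background.

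Without Pax8 +/- replicate 1, the number of chaperone genes past the thresholds was 5 of 9 (Hspa1a, Hspa1b, Hsph1, Dnajb1 and Hsp90aa1), against 2.69% of all probe sets that were then lower past them. Without Wt replicate 3 it was 2 (Hspa1b and Hsph1), against 1% of all probe sets that were then lower past them, and without each of the other 4 arrays it was 0. Each of these fits sets 2 arrays of 1 group against 3 of the other. The lists described below also depended on this array, with 6 immediate early and dissociation stress genes, 4 other heat-inducible genes and 3 mitochondrial chaperones or proteases lower past the thresholds, and 1 HSP90 cochaperone higher, without Pax8 +/- replicate 1. The adjusted p-values of the 5 genes without Pax8 +/- replicate 1 were 0.0667 to 0.0888, so that none passed after adjustment.

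Marker genes of islet cell types and genes of tissue handling also differed between the arrays. Of the 11 measured beta-cell markers, 11 had a higher mean in Pax8 +/- islets, against 10936 of 22206 gene probe sets. Their median log2 difference was 1.48, and their mean level was 12.86, 15.13 and 15.20 on the Pax8 +/- arrays and 12.89, 11.71 and 14.17 on the Wt arrays. This is the reverse of the chaperone genes, which were low where the beta-cell markers were high, Wt replicate 3 included. Nkx2-2, a transcription factor of beta cells, was the 1 of the 11 past the thresholds (1.87, standard error 0.78), against 0.648% of all gene probe sets that were higher past them. Mafa was above background on no array, while Ins2 and Iapp lay at the top of the scale on all 6, where differences cannot be read. The count of 11 includes all of these. Of 4 measured alpha-cell markers 3 had a higher mean and 1 a lower one (median 0.07). Their mean level was 12.11, 12.55 and 11.55 on the Pax8 +/- arrays and 11.70, 11.74 and 12.18 on the Wt arrays. Gcg lay at the top of the scale on all 6 arrays, Irx1 and Irx2 were above background on none, and Ttr was at 0.78 (standard error 0.51). Of 5 delta-cell and PP-cell markers 4 had a higher mean, against 10936 of 22206 gene probe sets (median 1.04). Their mean level was 14.79, 15.62 and 15.50 on the Pax8 +/- arrays and 14.42, 13.30 and 15.76 on the Wt arrays. Of 7 duct markers 6 had a lower mean, against 50.8% of all gene probe sets (median -0.87, mean level 11.35 to 13.35 in Pax8 +/- and 12.46 to 13.32 in Wt islets). Krt7 was the 1 duct marker that went the other way (0.93). Of 7 endothelial markers 6 had a lower mean, against 50.8% of all gene probe sets, and 3 were above background on no array. Their median was -0.45, with a mean level of 7.51 to 8.57 in Pax8 +/- and 8.01 to 8.70 in Wt islets. Among endothelial markers Cdh5, an adhesion protein of vessel walls, was at 13.04, 9.56 and 9.93 on the Pax8 +/- arrays and at 12.92, 13.29 and 11.47 on the Wt arrays. Kdr, the other endothelial marker above background on all 6 arrays, differed little (-0.11). It was at 10.58, 10.58 and 10.32 on the Pax8 +/- arrays and at 10.36, 10.91 and 10.54 on the Wt arrays. Plvap was the 1 endothelial marker with a higher mean (0.59). Of 11 acinar markers 7 lay at the top of the scale on every array, and Cela1 on 5 arrays. Among the others, Gp2 was at 19.10, 17.74 and 17.83 on the Pax8 +/- arrays and at 19.21, 19.43 and 18.73 on the Wt arrays (-0.90, standard error 0.40). Bhlha15 went the other way (0.75) and was above background on 3 arrays, and Ptf1a (-0.81) was above it on none. Of 7 immune and 7 mesenchymal markers, 6 each were above background on no array, Ptprc, Col1a2 and Col3a1 among them, and C1qa, a complement gene of macrophages, was higher past the thresholds but above background on 2 arrays only. Immediate early and dissociation stress genes, which respond to tissue handling, had a lower mean for 13 of 17, against 50.8% of all gene probe sets (median -0.44). Of the 17, 6 were above background on no array, and 1, Fosb, was lower past the thresholds, against 0.351% of all gene probe sets. The mean level of the 17 was 8.93, 8.02 and 8.07 on the Pax8 +/- arrays and 8.87, 9.33 and 8.54 on the Wt arrays. The part of cell makeup and of handling in the chaperone differences was not tested.

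**Figure D4:**
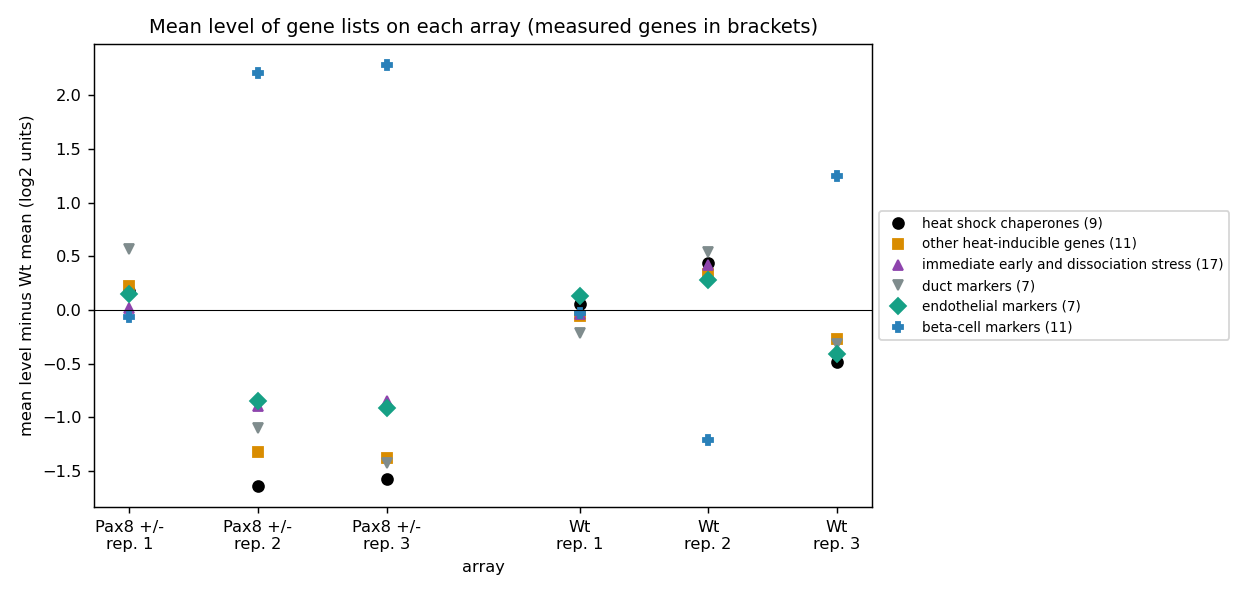
Mean log2 level of the measured genes of 6 lists on each array, minus the mean of the 3 Wt arrays (vertical axis). Pax8 +/- replicates 2 and 3 have low heat shock chaperones (-1.64 and -1.57) and high beta-cell markers (2.20 and 2.28), and Pax8 +/- replicate 1 stands near the Wt mean in both.

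The remaining chaperones were set beside the 9 genes with lists of the HSP70, HSP90 and mitochondrial systems. The other members of the HSP70 and HSP110 families had a lower mean for 5 of 10 and 0 past the thresholds, with a median log2 difference of 0.09. Hspa4 and Hspa4l, relatives of Hsph1, were at -0.49 (standard error 0.24) and -0.47 (standard error 0.23), with groups that did not overlap for either. Of the 10, these 2 were lower without overlap, against 5.14% of all gene probe sets, and 1 was higher, against 4.52%. Hspa4 was at 12.77, 12.92 and 12.85 on the Pax8 +/- arrays and at 13.55, 13.21 and 13.25 on the Wt arrays, so that Pax8 +/- replicate 1 stood with its own genotype here. The higher one was Hspa2, a testis HSP70, at 7.10, 7.22 and 7.02 on the Pax8 +/- arrays and at 6.94, 6.91 and 6.14 on the Wt arrays (0.45). It lay at background on every array, and Hspa12a did as well. Of 10 J-domain cochaperones 0 passed and 6 had a lower mean (median -0.08). Dnajb4, a close relative of Dnajb1, was higher on every Pax8 +/- array (8.43, 8.84 and 8.88) than on any Wt array (7.83, 8.17 and 8.40), at 0.59 (standard error 0.27). It was the 1 of the 10 without overlap, against 4.52% of all gene probe sets that were higher without it. Dnajc2, a ribosome-bound cochaperone, was at -0.60, and Dnajb6 and Dnaja4 were at 0.29 and -0.29. Of 8 nucleotide exchange factors and partners 0 passed and 5 had a lower mean (median -0.32), among them St13 (-0.58), Bag2 (-0.35) and Bag1 (-0.40), with Bag4 at background (0.58).

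Of 12 measured HSP90 cochaperones, 8 had a lower mean (median -0.21), against 50.8% of all gene probe sets, 0 passed the thresholds and 2 were lower at an unadjusted p of at most 0.05, against 2.77%. Hsp90ab1, the constitutive HSP90, and Hsf1 were not matched to a probe set and are not analysed here. Sugt1, an adaptor of HSP90, was at 10.05, 9.72 and 9.68 on the Pax8 +/- arrays and at 10.40, 11.10 and 10.53 on the Wt arrays, with no overlap and a log2 difference of -0.86 (standard error 0.28). Ahsa2, an activator of HSP90, was above background on the Wt arrays alone and at least 1.33-fold lower in Pax8 +/- islets. Ptges3, the p23 cochaperone, was at -0.64 (standard error 0.29), without overlap, and Pih1d1 lay at background on all arrays (1.05). Of the 12, 4 were lower without overlap, against 5.14% of all gene probe sets. Among 6 heat shock factors and regulators 2 had a lower mean and 0 passed (median 0.11), with Hsf4 at -0.60, Hikeshi, the nuclear import carrier of HSP70, at -0.28, Hsbp1, a negative regulator of Hsf1, at 0.38, and Hsf2 at 0.19.

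Small heat shock proteins other than Hspb1 had calls in both directions. Of 9, 1 was higher (Hspb6) and 1 lower (Hspb8) past the thresholds, against 0.648% and 0.351% of all gene probe sets, and 6 were above background on no array (list median -0.03). Both calls were lost with the Tukey biweight fold and without Wt replicate 2, the higher one also without Pax8 +/- replicate 3 and the lower one also without moderation, while 2 were lower without Wt replicate 3. Hspb6, a small heat shock protein of muscle, was at 10.34, 11.26 and 11.78 on the Pax8 +/- arrays and at 9.90, 9.17 and 10.04 on the Wt arrays. The lowest Pax8 +/- value exceeded the highest Wt value, for 1 of the 9 and for 4.52% of all gene probe sets. The log2 difference of Hspb6 was 1.42 (standard error 0.41), with an adjusted p = 0.745 from limma. Cryab, alpha B-crystallin, was at 9.13, 8.86 and 9.67 on the Pax8 +/- arrays and at 10.51, 11.10 and 9.48 on the Wt arrays. Its log2 difference was -1.15 (standard error 0.43), 2.21-fold lower and short of the 2.5-fold threshold. Hspb8, which works with Bag3, was above background on Wt replicate 2 alone, so that its difference of -1.37 is not exact. With Pax8 +/- values set no lower than the background it was 1.06-fold lower. This is no lower bound, because Wt replicates 1 and 3 lay at background too. Hspb3 lay at background (-0.21).

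**Figure D5:**
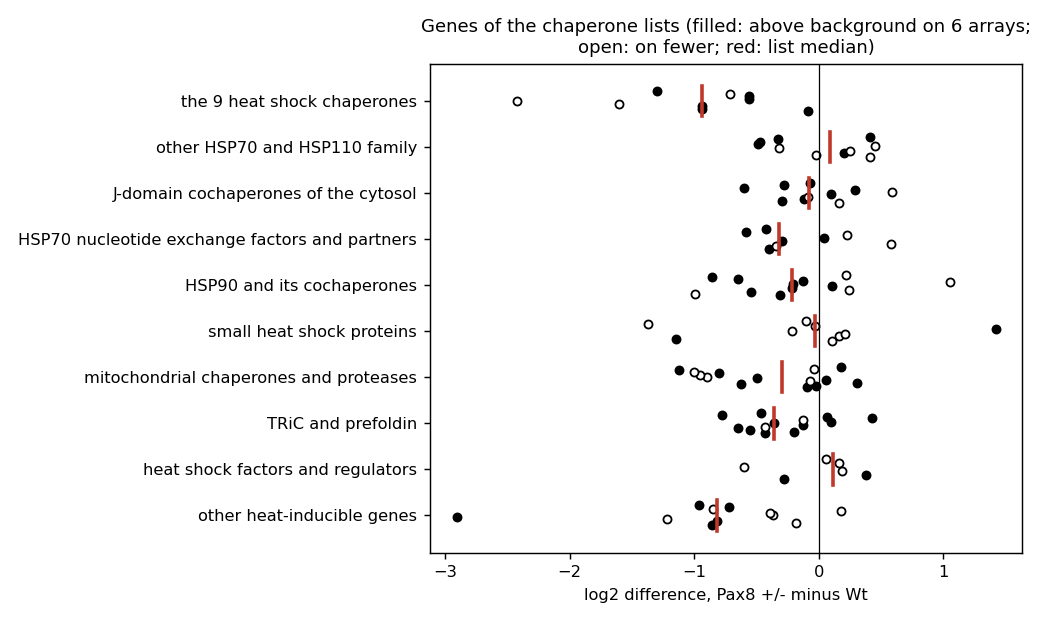
Log2 difference (Pax8 +/- minus Wt, horizontal axis) of each measured gene in 10 lists, filled where the gene was above background on all 6 arrays and open elsewhere, with the list median in red. The medians are -0.93 for the 9 heat shock chaperones and -0.81 for other heat-inducible genes, and lie between -0.36 and 0.11 for the other lists.

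Of 14 mitochondrial chaperones and proteases, 11 had a lower mean (median -0.29), against 50.8% of all gene probe sets, 0 passed the thresholds and 2 were lower at an unadjusted p of at most 0.05, against 2.77%. Hspa9, the HSP70 of the mitochondrial matrix, was at 12.46, 11.80 and 11.75 on the Pax8 +/- arrays and at 13.00, 13.06 and 12.34 on the Wt arrays. Its log2 difference was -0.80 (standard error 0.32), and Pax8 +/- replicate 1 was inside the Wt range. Htra2, a protease of the intermembrane space, was the 1 of the 14 without overlap (-0.999, standard error 0.39), against 5.14% of all gene probe sets that were lower without it. Lonp1, the matrix protease, was at 11.36, 8.88 and 8.95 on the Pax8 +/- arrays and at 11.12, 11.12 and 10.32 on the Wt arrays, with Pax8 +/- replicate 1 the highest array, as for Hsp90aa1 and Hspd1. Hscb lay at background (-0.95). In the chaperonin of the cytosol and prefoldin, 10 of 13 had a lower mean, against 50.8% of all gene probe sets (median -0.36), and 0 passed. The chaperonin subunits Cct5 (-0.65, standard error 0.27), Cct4 (-0.56, standard error 0.27) and Cct7 had groups that did not overlap, the last at background, and Tcp1 was at -0.78. These were 3 of the 13 lower without overlap, against 5.14% of all gene probe sets.

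Of 11 other heat-inducible genes, 10 had a lower mean, against 50.8% of all gene probe sets, with a median of -0.81, and 4 were above background on no array. Past the thresholds 1 was lower, against 0.351% of all gene probe sets. The 1 was Hmox1, which degrades heme and which the study singled out on these samples, so that it is no independent evidence (-2.91, standard error 1.15). Gadd45b and Gadd45a, growth arrest genes, were at -1.22 and -0.81, and Zfand2a, a proteasome adaptor, was at 15.80, 14.38 and 13.12 on the Pax8 +/- arrays and at 14.97, 15.66 and 15.56 on the Wt arrays (-0.96, standard error 0.60). Among the genes of these chaperone lists, motifs of 3 units were found in the windows of Dnajb6, a J-domain protein, and of Chordc1, a partner of HSP90, whose log2 differences were 0.29 and -0.21.

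The genes most like the mean of the 9 over the arrays were sought among 4229 named probe sets above background on all 6 arrays and outside the lists. Likeness was the root mean square distance over 6 arrays after each profile was centred on its own mean, and the mean of the 9 itself spanned 2.08 log2 units. The nearest 5 were Eif2ak3 (0.13), a kinase that slows translation when protein folding in the endoplasmic reticulum fails, Pitpnc1 (0.13), a phosphatidylinositol transfer protein, Clic1 (0.14), an intracellular chloride channel protein, Tes (0.14), a focal adhesion protein, and Esd (0.14), an esterase. Eif2ak3 was at 13.88, 11.99 and 12.27 on the Pax8 +/- arrays and at 13.64, 14.17 and 13.48 on the Wt arrays, a log2 difference of -1.05 (standard error 0.49). Pax8 +/- replicate 1 lay within the Wt range and replicates 2 and 3 lay below it, as for Hspa1b, Hsph1 and Dnajb1. This likeness follows from the choice of the gene by its profile on these arrays and is no separate evidence.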

How the data were processed

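Islet RNA of 3 Pax8 +/- and 3 Wt samples was hybridized to Clariom S arrays. The authors quantified the images in the GeneChip Command Console Software. RMA and the Transcriptome Analysis Console are listed in the submitters' processing notes without versions, so that the deposited log2 values were background-corrected and normalized between arrays. No source used here names a genome build for the deposited values, and the promoter windows come from a separate RefSeq table of GRCm38.p6. Of 28846 rows, 5222 negative and 1418 other control probe sets were left out and 22206 gene probe sets kept, of which 19572 had 1 symbol and 2634 are unnamed here. Groups came from the sample titles. One limma fit (version 3.58.1, R 4.3.3, lmFit with eBayes, 4.32 prior degrees of freedom) held all 6 arrays and no covariate. Tests were 2-sided, p-values were adjusted over all 22206 probe sets by Benjamini-Hochberg, and the procedure was tested on simulated data. The number of arrays limits the precision.

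The 10 genes and the other lists were chosen with earlier results of these data known. The rule for named genes took the 10, up to 4 genes per list with the smallest p, Hspa9, Hsp90ab1 and Hsf1, and the 5 genes nearest in profile. Cell type markers were named by the same rule only where a value is needed, and Mafa, Ins2, Iapp, Kdr, Col3a1 and Chordc1 were named after their values were seen. The folds of Hspe1, Ahsa2 and Hspb8 against background set Pax8 +/- values no lower than the background percentile of their array. Wt values were left as measured. Such a fold is a lower bound only where the Wt arrays were above background, as for Ahsa2. Alternatives were other moderation, array weights, scaling, filters on probe sets, other fold changes, the replicate number as a block and leaving out each array.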

Additional observations from a re-analysis of the deposited data

How the results depend on the processing

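The median log2 difference of the 9 genes kept its sign and moved by less than the spread between arrays under all 17 alternatives, with -1.52 to -0.60 when each array was left out in turn, and the count at an adjusted p under 0.05 was 0 under all of them in limma or the ordinary linear model. The count past the study's fold change and p together, 1 in the fit to all arrays, was 0 without empirical Bayes moderation, 3 with array weights, 2 with quantile normalization, 2 with a Tukey biweight, 2 at a fold change of 2, and 0 to 5 when each array was left out. Of all probe sets, 0.351% were lower past both in the fit to all arrays and 0.0721% without moderation. The share was 1.38% with array weights, 0.338% with quantile normalization, 0.536% with a Tukey biweight and 0.0766% to 2.69% when each array was left out. At a fold change of 2 it was not counted. The count on the unadjusted p alone, 3 in the fit to all arrays, was 1 without moderation, 6 with array weights and 0 to 6 when each array was left out. Over all 22206 probe sets, in either direction, it was 1312 in the fit to all arrays and 976 without moderation. With array weights it was 3076, and 525 to 3407 when each array was left out, so that the calls moved over the whole array too. The gene added under quantile normalization, the Tukey biweight and the fold change of 2 was Hsph1. The causes were not tested. Bag3 turned sign without Pax8 +/- replicate 2 (0.0205) and without Wt replicate 2 (0.0009), with -0.2295 to 0.0205 over the arrays left out, and no other of the 9 genes did under any alternative run.

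The labels do not say whether replicate numbers pair the samples. Deviations from the group means correlated at 0.004, -0.421 and 0.139 for replicates 1, 2 and 3, and at -0.448 to 0.475 for unequal numbers. With 3 arrays per group these values cannot decide it. A fit with a block for the replicate number left 1 of the 9 genes past the thresholds and 2 past the unadjusted p, and the median stayed at -0.93. Over all probe sets it called 145 lower and 203 higher, against 78 and 144. Over the alternatives these counts went from 16 lower and 19 higher without moderation to 597 lower and 740 higher without Pax8 +/- replicate 1. Precision is limited by 3 arrays per group and, for Hspa1b, Hspa1a and Hspe1, by signal at background.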
